A study of Mus musculus with 22 samples.

Results

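Endothelial and epithelial cells sorted from the lungs of mice at P28 (postnatal day 28) were compared by RNA-seq, with 2 libraries of each fraction, which makes 4 of the 22 libraries in the series. The libraries were chosen by their labels alone. A gene was tested if its deposited value was at least 1 in at least 2 of these 4 libraries, and 10246 of 24344 genes were. Genes high in a single fraction could pass through its libraries alone, while genes low in both fractions were not tested. Counts of tested list members called higher are therefore partly set by this filter. All 4 libraries came from wild-type C57BL6 mice. The endothelial fraction was sorted as CD31+ cells, CD31 being the adhesion molecule encoded by Pecam1. The epithelial fraction was sorted as CD326+ cells, CD326 being the adhesion molecule encoded by Epcam. An immune fraction of the same age, also with 2 libraries, is given as a reference. Its libraries, like all 22, also entered the statistical fit and the rescaling described below.

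In the series as a whole, sorted endothelial, epithelial and immune cells were profiled at several ages of lung development. At P28, replicate 1 of every fraction carries the same sample code and replicate 2 carries another. The labels used here do not say whether a code stands for 1 animal or for a pool. All 4 libraries also share a sequencing run. The p-values below rest on the spread between replicates, pooled over all 11 groups of the series, which may be technical. In these groups, an endothelial and an epithelial library titled E16.5 have descriptions with another age code and were grouped by title. Replicates at P7 (postnatal day 7) came from different sequencing runs. The pooled spread may therefore hold age and run differences that the P28 replicates do not have.

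Gas exchange takes place where alveolar epithelium lies against capillary endothelium. Alveolar type 1 (AT1) cells form the thin barrier, type 2 (AT2) cells make surfactant, and club and ciliated cells line the airways. On the vascular side, general and Car4-type capillary cells, arterial, venous and lymphatic endothelium are distinguished by their markers. Both lineages are held together by different cadherins and claudins, and they signal to each other, for example through VEGFA made by the epithelium and its receptor KDR on the endothelium.

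Values are the authors' deposited expression values, which sum to 228405 in every library. The 10 genes with the highest values took 21.3 and 21.7% of the endothelial totals and 45.3 and 51.0% of the epithelial totals. Most differences are therefore also given after median-of-ratios rescaling (called rescaled here), which sets the typical gene level between libraries. A difference printed without a rescaled value is on the deposited scale, unless it is named as rescaled. The rescaling factors were 1.07 and 1.08 for the endothelial libraries and 0.618 and 0.598 for the epithelial ones, and they moved the median log2 difference over all tested genes from 0.63 to 0.01. Genes with a value of at least 1 numbered 9913 and 10028 in the endothelial and 8461 and 8359 in the epithelial libraries. Across genes, replicates correlated with Pearson's r of 0.977 in endothelium and 0.966 in epithelium, against 0.675 to 0.719 between fractions. These genes are not independent replicates. The files give no read counts, so the depth behind each value is unknown.

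Of the 10246 genes, 2243 were higher in endothelium on both scales (21.9% of genes tested) and 1007 were higher in epithelium on both scales (9.83%). A difference is called here, and described as higher, only where limma's test with Benjamini-Hochberg adjustment passed 0.05 in the same direction on the deposited and on the rescaled values. Log2 differences are endothelial minus epithelial on the log2(value + 1) scale, given ± SE. The deposited values alone gave 5435 genes higher in endothelium (53.0%) and 1007 higher in epithelium (9.83%), and the rescaled values alone gave 2243 (21.9%) and 2154 (21.0%). Endothelial genes therefore made up 84.4% of the calls on deposited values and 51.0% on rescaled values. No gene was called in opposite directions on the 2 scales. As deposited, 7129 of the 10246 genes had both endothelial values above both epithelial ones, and 1530 had both below. After rescaling these numbers were 3846 and 3688, so groups without overlap were common. Of the genes called on both scales, 1487 and 640 were still called in each of the 8 fits that left out 1 of the 4 libraries on either scale. Rescaled differences above 2 on the log2 scale were called for 625 genes in endothelium and 459 in epithelium, and differences above 5 for 70 and 8. The 95% interval of the rescaled difference lay within 1 log2 unit of 0 for 4715 genes (46.0%).

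**Figure D1:**
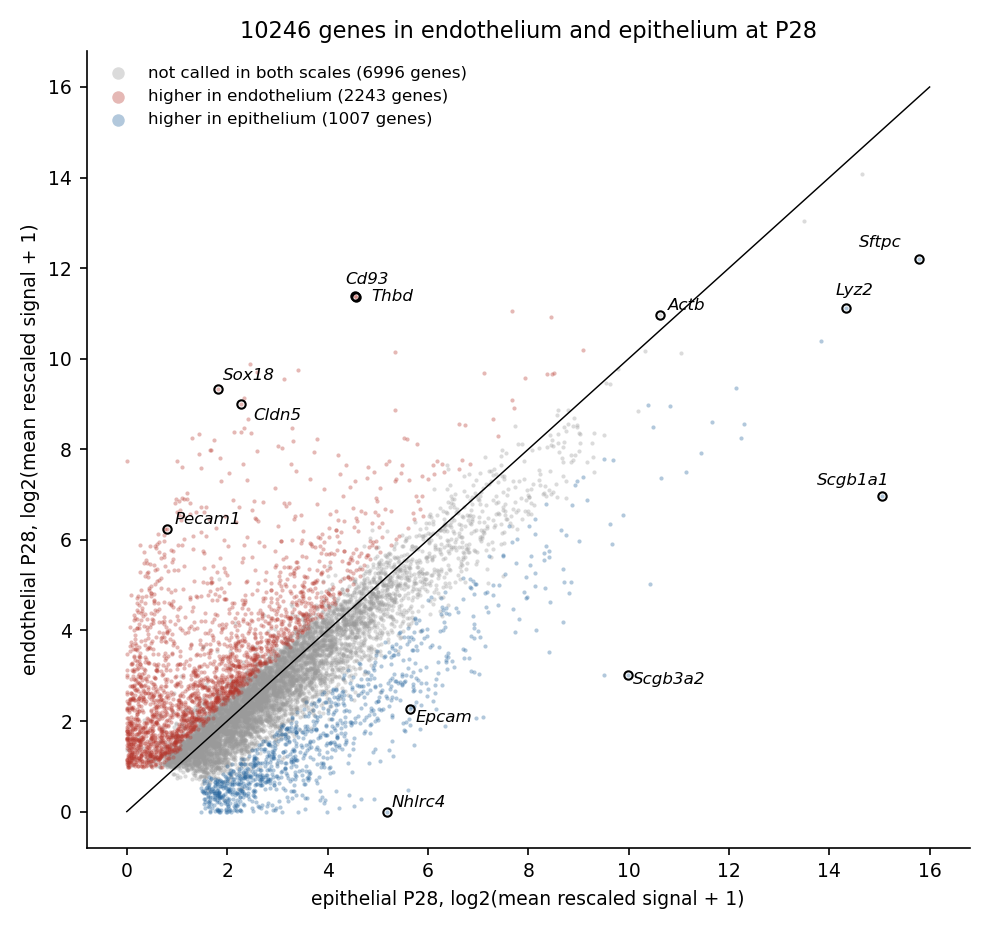
Mean rescaled expression of each tested gene in the epithelial (x axis) and endothelial (y axis) libraries at P28, both as log2(value + 1). Coloured points are the 2243 genes higher in endothelium and the 1007 higher in epithelium on both scales, and grey points are the 6996 others.

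The genes of the antigens used for sorting separated the fractions in opposite directions, with different margins. Their directions were set by the sort itself, so their p-values are no separate support for the difference between the fractions. Pecam1 (chr11:106654213-106715281 in RefSeq, GRCm38.p6) was at 86.1 and 75.1 in endothelial replicates 1 and 2 and at 0.599 and 0.320 in epithelial replicates 1 and 2 (log2 difference 5.81 ± 0.45, rescaled 5.45, limma adjusted p = 4.58e-08). Epcam (chr17:87635979-87651127) was at 2.68 and 5.57 in endothelium and at 34.5 and 25.6 in epithelium (log2 difference -2.65 ± 0.50, rescaled -3.43, limma adjusted p = 3.70e-04). Every endothelial library was above every epithelial one for Pecam1 and below for Epcam. The endothelial libraries held 8.90 and 18.5% of the epithelial Epcam mean. Ptprc, the common leukocyte antigen CD45, was at 0.130 and 0.261 in endothelium, at 0.0593 and 0.0174 in epithelium and at 32.1 and 55.3 in the immune libraries, and was too low to be tested. In such bulk libraries, fewer cells of a type and less RNA per cell cannot be told apart.

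**Figure D2:**
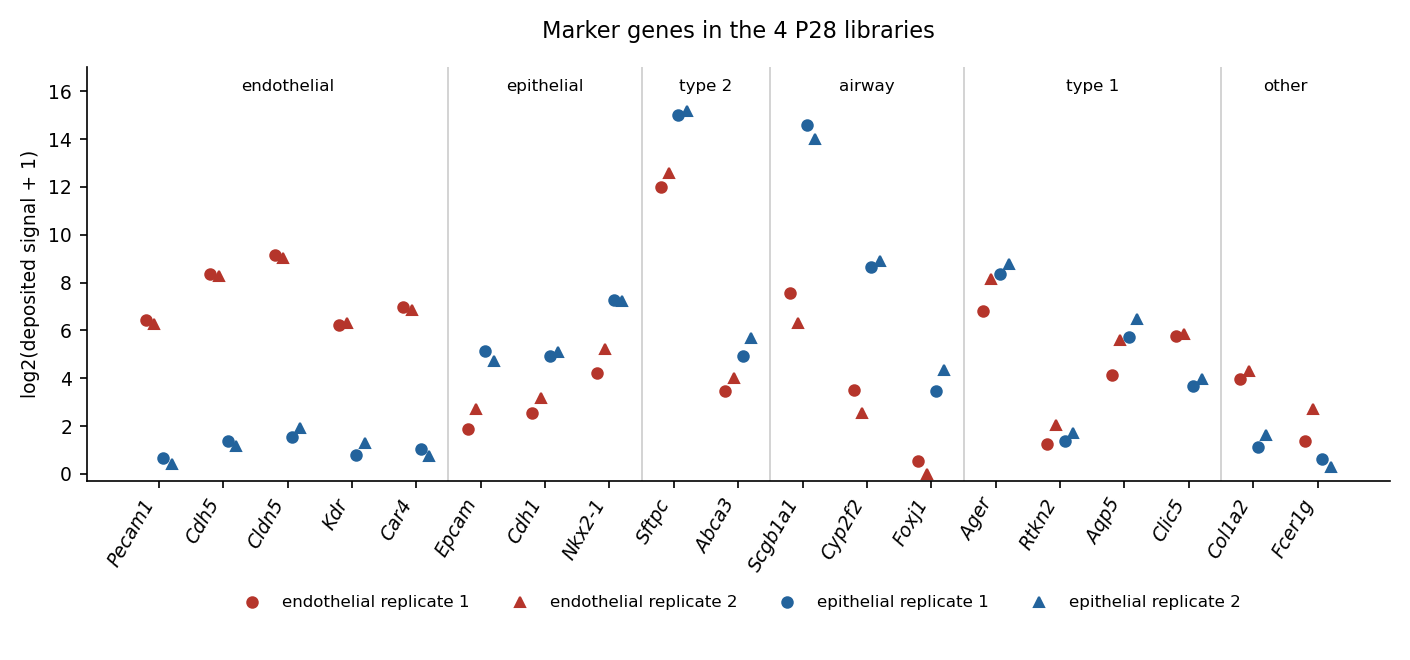
Deposited values of 19 marker genes in each of the 4 libraries at P28, as log2(value + 1) by gene. Endothelial markers such as Cdh5 and Cldn5 lie near the floor in both epithelial libraries. In both endothelial libraries Sftpc, Abca3, Ager, Aqp5 and Clic5 stay well above the floor. Epcam is lower there, at 2.68 and 5.57 in replicates 1 and 2, and Foxj1 is at the floor, at 0.456 and 0.

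The largest endothelial differences were in vascular regulators, lymphatic genes and junction genes. The transcription factor Sox18, which acts in vascular and lymphatic development, was at 648 and 735 in endothelium and at 1.20 and 1.88 in epithelium (log2 difference 8.10 ± 0.49, rescaled 7.53, limma adjusted p = 4.88e-09). Thbd, the thrombin receptor thrombomodulin that restrains clotting, was at 3333 and 2353 against 16.7 and 10.98 (log2 difference 7.59 ± 0.50, rescaled 6.81, limma adjusted p = 8.94e-09). S1pr1, the sphingosine-1-phosphate receptor that stabilises vessels, was at 719 and 479 against 2.81 and 2.14 (log2 difference 7.41 ± 0.41, rescaled 6.76, limma adjusted p = 1.87e-09). For these 3 genes the lowest endothelial value was more than 100 times the highest epithelial value.

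Cd93, a membrane lectin of endothelial and myeloid cells, was at 3141 and 2639 against 20.2 and 7.31 (log2 difference 7.76 ± 0.65, rescaled 6.99, limma adjusted p = 1.03e-07), with the epithelial replicates apart from each other. Aplnr, the apelin receptor, was at 305 and 386 against 0.910 and 1.17 (log2 difference 7.40 ± 0.57, rescaled 6.89, limma adjusted p = 4.71e-08). Cldn5, the tight-junction claudin of endothelium, was at 564 and 527 against 1.91 and 2.76 (log2 difference 7.37 ± 0.57, rescaled 6.73, limma adjusted p = 4.74e-08). Clec14a, an endothelial lectin, was at 781 and 833 against 6.59 and 2.87 and Ramp2, the co-receptor that makes the calcitonin-like receptor respond to adrenomedullin, was at 1063 and 787 against 7.42 and 4.29, with log2 differences of 7.22 and 7.10 (rescaled 6.51 and 6.37). Cdh5, the cadherin of endothelial junctions, was at 324 and 307 against 1.605 and 1.23 (log2 difference 7.03 ± 0.50, rescaled 6.47, limma adjusted p = 1.72e-08). Groups without overlap were a condition for being among the 12 largest differences. Each of these genes was called in all 8 fits that left out 1 of the 4 libraries on either scale.

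Lymphatic genes were among the same 12 largest. Lyve1, the hyaluronan receptor of lymphatic endothelium, was at 322 and 330.4 against 1.04 and 0.739 (log2 difference 7.44 ± 0.66, rescaled 6.96, limma adjusted p = 1.98e-07). Ccl21a, the chemokine that draws dendritic cells and T cells into lymphatics, was at 717 and 1071 against 4.75 and 1.46 (log2 difference 7.87 ± 0.64, rescaled 7.22, limma adjusted p = 6.86e-08). Its near-identical copy Ccl21c was at 173 and 285 against 0.00143 and 5.06e-04 (log2 difference 7.80 ± 1.61, rescaled 7.70, limma adjusted p = 7.20e-04), and how the reads were divided between the copies is uncertain.

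The largest epithelial differences were in secretory genes of the airway. Scgb1a1, the main club-cell secretoglobin, was at 24754 and 16694 in epithelium and at 186 and 78.4 in endothelium (log2 difference -7.38 ± 0.81, rescaled -8.20, limma adjusted p = 1.92e-06), which was 157-fold on deposited and 275-fold on rescaled means. It took 10.8 and 7.31% of the epithelial totals. Scgb3a2, another secretoglobin, was at 827 and 415 against 11.8 and 3.51 (log2 difference -6.27 ± 0.80, rescaled -7.08, limma adjusted p = 8.63e-06). Cyp2f2, the cytochrome P450 of club cells, was at 403 and 477 against 10.5 and 4.79 (log2 difference -5.75 ± 0.60, rescaled -6.56, limma adjusted p = 1.13e-06).

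For all 3 genes the epithelial values were far above the endothelial ones, and endothelial replicate 1 was above replicate 2. The same order between the endothelial replicates was seen for Scgb3a1 at 57.2 and 10.5 against 936 and 734 in epithelium (log2 difference -5.00 ± 0.98, rescaled -5.82, limma adjusted p = 5.00e-04). It was also seen for Reg3g, an antimicrobial lectin, at 20.5 and 1.73 against 299 and 119 (log2 difference -4.63 ± 0.92, rescaled -5.42, limma adjusted p = 5.44e-04). Muc5b, the main airway mucin, was at 5.79 and 1.04 in endothelium against 102 and 48.4 in epithelium (log2 difference -4.26 ± 0.75, rescaled -5.04, limma adjusted p = 1.89e-04). Groups did not overlap for any of these genes, which was a condition for being among the 12 largest differences.

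Nhlrc4 was listed at 0 in both endothelial libraries and at 29.4 and 13.7 in epithelium (log2 difference -4.40 ± 0.36, rescaled -5.09, limma adjusted p = 8.92e-08). Gabrp, a GABA receptor subunit, was at 0.658 and 0.160 against 38.6 and 19.4 (log2 difference -4.36 ± 0.31, rescaled -5.08, limma adjusted p = 2.11e-08). Retnla, a secreted resistin-like protein, was at 3.47 and 3.54 against 129 and 38.9, and Cox6a2, a cytochrome oxidase subunit, was at 1.42 and 4.402 against 51.99 and 45.3, with log2 differences of -4.00 and -3.78. Hp, haptoglobin, was at 15.46 and 21.5 against 243 and 256 (log2 difference -3.70 ± 0.47, rescaled -4.52, limma adjusted p = 8.45e-06). Foxj1, the transcription factor of motile cilia, was at 0.456 and 0 against 10.2 and 19.3 (log2 difference -3.64 ± 0.35, rescaled -4.34, limma adjusted p = 4.82e-07). These 12 epithelial genes were called in all 8 leave-one-out fits.

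For 4 called genes that have a promoter window in RefSeq's mouse annotation (GRCm38.p6), the sequence just upstream of the transcription start is shown. The windows of each fraction can thus be set side by side. The 250 bases before the start are printed 5′ to 3′ on the gene's strand for Cldn5 (chr16:18776597-18776846, plus strand) and Tie1 (chr4:118489850-118490099, minus strand), both higher in endothelium. Likewise shown are Cyp2f2 (chr7:27119705-27119954, plus strand) and Sftpa1 (chr14:41131538-41131787, plus strand), both higher in epithelium. Capitals mark matches on either strand to AGGAAG (the core of many ETS sites), ACAATG (SOX), GGGTGTG (KLF), CAAGTG (NKX2-1) and TGTTTAC (FOXA).
Cldn5: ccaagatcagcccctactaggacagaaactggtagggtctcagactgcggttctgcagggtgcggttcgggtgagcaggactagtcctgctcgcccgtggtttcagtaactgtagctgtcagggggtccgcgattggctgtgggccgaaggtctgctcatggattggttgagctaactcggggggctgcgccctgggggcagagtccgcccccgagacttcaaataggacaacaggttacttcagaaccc
Tie1: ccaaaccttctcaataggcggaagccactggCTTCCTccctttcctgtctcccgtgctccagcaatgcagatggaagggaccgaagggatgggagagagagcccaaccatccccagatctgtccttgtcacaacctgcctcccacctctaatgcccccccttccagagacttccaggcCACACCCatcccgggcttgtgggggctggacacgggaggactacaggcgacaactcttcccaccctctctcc
Cyp2f2: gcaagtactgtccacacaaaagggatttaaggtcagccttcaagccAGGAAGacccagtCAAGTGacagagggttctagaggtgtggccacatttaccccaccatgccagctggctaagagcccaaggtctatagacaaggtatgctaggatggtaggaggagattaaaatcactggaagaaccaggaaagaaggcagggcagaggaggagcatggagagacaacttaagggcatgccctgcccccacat
Sftpa1: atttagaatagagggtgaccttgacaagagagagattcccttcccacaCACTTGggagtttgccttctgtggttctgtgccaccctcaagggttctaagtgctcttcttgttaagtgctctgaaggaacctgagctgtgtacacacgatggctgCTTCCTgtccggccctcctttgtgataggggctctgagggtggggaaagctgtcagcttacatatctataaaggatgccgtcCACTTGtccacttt

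The Cldn5 window held none of the 5 words. In Tie1 the capitals are an ETS word on the opposite strand starting at -219 and a KLF word on the opposite strand starting at -72, counted back from the start. In Cyp2f2 they are an ETS word at -204 and an NKX2-1 word at -191. In Sftpa1 they are NKX2-1 words on the opposite strand at -202 and -14 and an ETS word on the opposite strand at -96. No matches overlapped in these windows. A match here is a run of letters, not a shown binding site.

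Over all windows of this length, the ETS word was found in 28.1% of windows of tested genes, in 31.0% of those of genes higher in endothelium and in 31.1% of those of genes higher in epithelium. The NKX2-1 word was found in 9.51%, 9.63% and 12.9% of the same windows. The KLF word was found in 7.10%, 7.89% and 7.94%, the SOX word in 6.17%, 6.19% and 6.76%, and the FOXA word in 2.09%, 1.88% and 2.90%. Of the tested genes, 7755 had at least 1 window. These shares are descriptions without a test, and over all RefSeq windows the ETS, NKX2-1, KLF, SOX and FOXA words were found in 29.5, 11.6, 6.93, 10.7 and 3.17%.

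Each of the 14 tested endothelial identity genes was higher in endothelium on both scales, with a median log2 difference of 5.64 (rescaled 5.30), beside 0.63 and 0.01 over all genes. All 14 were called in every fit that left out a library. They include Pecam1, whose direction was set by the sort. Besides Pecam1, Cdh5, Cldn5 and Clec14a, these include Tie1, the orphan receptor of the angiopoietin system, at 62.1 and 60.8 against 0.212 and 0.245 (log2 difference 5.67 ± 0.36, rescaled 5.40, limma adjusted p = 7.16e-09). Plvap, which forms the diaphragms of endothelial pores, was at 45.4 and 48.8 against 0.154 and 0.233 (log2 difference 5.33 ± 0.22, rescaled 5.09), with epithelial values near 0. Icam2, an adhesion molecule for leukocytes, was at 146 and 114 against 0.506 and 0.863 (log2 difference 6.28 ± 0.39, rescaled 5.84).

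**Figure D3:**
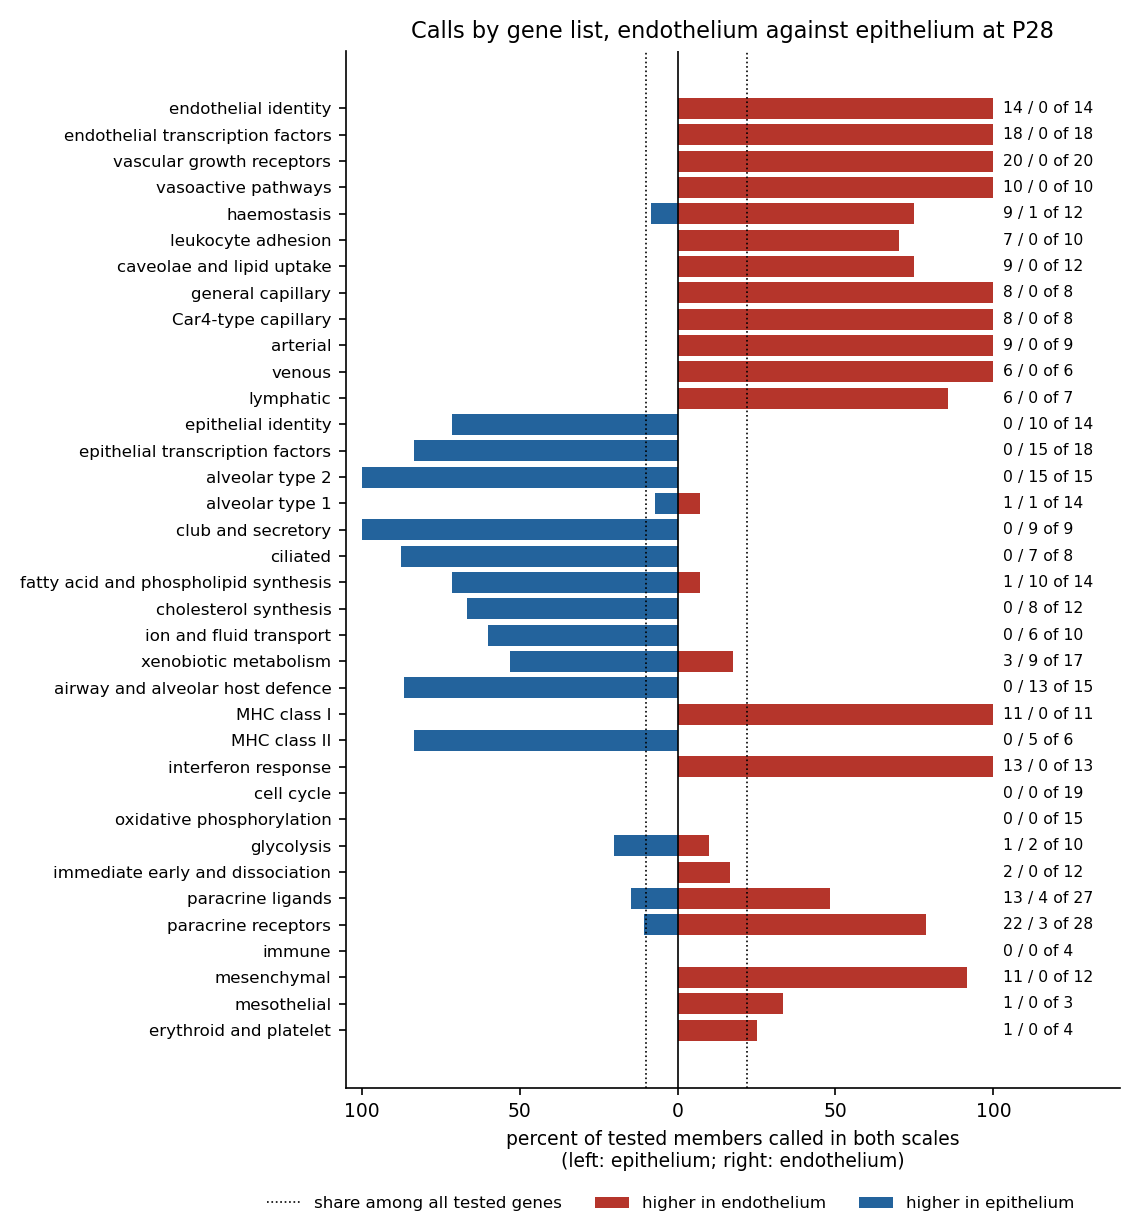
Percentage of tested members of each gene list called higher in endothelium or higher in epithelium on both scales. Dotted lines mark the share among all tested genes, 21.9% in the endothelial and 9.83% in the epithelial direction.

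All 18 tested endothelial transcription factors were higher in endothelium (median 4.55, rescaled 4.04), and Meox2 was too low to be tested. Foxf1, a forkhead factor of the lung vessels and mesenchyme, was at 370.5 and 349 against 2.39 and 2.25 (log2 difference 6.76 ± 0.54, rescaled 6.12, limma adjusted p = 5.59e-08). Sox7 was at 249.4 and 170.1 against 0.846 and 0.557 and Sox17 at 60.3 and 48.9 against 0.813 and 0.0203, with log2 differences of 6.93 and 5.35. With Sox18 they form the SOXF group of endothelial regulators. Gata2 was at 149.8 and 105 against 0.753 and 0.436 (log2 difference 6.31 ± 0.39, rescaled 5.91).

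The flow-responsive factors Klf2 and Klf4 were at 196 and 197 against 8.61 and 2.87 and at 364 and 277 against 8.70 and 6.89, with log2 differences of 5.02 and 5.19. Epas1, the hypoxia-inducible factor HIF-2α, was also detected in epithelium at 28.3 and 25.2, against 235 and 194 in endothelium (log2 difference 2.95 ± 0.38, rescaled 2.15, limma adjusted p = 9.40e-06). Erg, an ETS factor of endothelial identity, was at 7.02 and 7.16 against 0.140 and 0.0321 (log2 difference 2.90 ± 0.32, rescaled 2.74). The endothelial and epithelial values did not overlap for any factor named here.

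Within transcription factor families, different members were called in each fraction, beside 21.9% of all tested genes in endothelium and 9.83% in epithelium. Of 9 tested SOX genes, 5 were higher in endothelium (Sox7, Sox11, Sox13, Sox17 and Sox18) and Sox2, a factor of airway epithelium, was higher in epithelium. Sox2 was listed at 0 in both endothelial libraries and at 8.65 and 3.08 in the epithelial ones (log2 difference -2.65 ± 0.39, rescaled -3.26, limma adjusted p = 3.33e-05). Sox11 was at 61.4 and 70.7 against 0.512 and 0.309 (log2 difference 5.57 ± 0.27, rescaled 5.23). Of 13 KLF genes, 9 were higher in endothelium and 2, Klf5 and Klf15, in epithelium. Of 18 ETS genes, 12 were higher in endothelium and 4 in epithelium, the latter being Ehf, Elf3, Elf5 and Etv5. Of 20 forkhead genes, 8 were higher in endothelium and 5 in epithelium, namely Foxa1, Foxa2, Foxj1, Foxp4 and Foxq1.

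All 20 tested vascular growth receptors and regulators were higher in endothelium and stayed so without any 1 library (median 4.88, rescaled 4.60). Some lists share members, so their counts are not separate results. Aplnr, for example, is on this list and on the general capillary list. Kdr, the main VEGF receptor, was at 74.0 and 79.5 against 0.714 and 1.45 (log2 difference 5.24 ± 0.42, rescaled 4.73, limma adjusted p = 5.95e-08). Ptprb, the vascular phosphatase VE-PTP, was at 264 and 278 against 1.79 and 0.852 (log2 difference 6.90 ± 0.48, rescaled 6.36). Acvrl1, the BMP9 receptor ALK1, was at 116 and 99.6 against 0.643 and 0.667 (log2 difference 6.04 ± 0.35, rescaled 5.60). Epithelial values of these receptors were at most 1.79.

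Bmpr2, the type II BMP receptor, had a smaller contrast, at 209 and 219 against 14.1 and 9.88 (log2 difference 4.07 ± 0.42, rescaled 3.29, limma adjusted p = 9.33e-07). Efnb2, the ephrin of arteries, was at 99.7 and 95.6 against 1.54 and 1.95 (log2 difference 5.17 ± 0.23, rescaled 4.57). Flt4, the receptor for VEGFC, was at 51.3 and 61.5 against 0.163 and 0.173 (log2 difference 5.61 ± 0.36, rescaled 5.38). Groups did not overlap for these genes.

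All 10 tested genes of vasoactive pathways, of 12 listed, were higher in endothelium (median 4.25, rescaled 3.89), and 9 kept the call without any 1 library. Ace, which makes angiotensin II at the luminal surface of lung vessels, was at 455 and 418 against 3.43 and 1.88 (log2 difference 6.94 ± 0.63, rescaled 6.29, limma adjusted p = 2.64e-07). Calcrl, the receptor that Ramp2 joins, was at 280.2 and 263 against 1.76 and 0.949 (log2 difference 6.87 ± 0.44, rescaled 6.33). Edn1, the vasoconstrictor endothelin-1, was at 74.3 and 43.0 against 1.13 and 0.679 and its receptor Ednrb at 49.1 and 63.9 against 0.211 and 0.467, with log2 differences of 4.93 and 5.42. The exception was Npr1, the receptor for atrial natriuretic peptide, whose call was lost in 2 fits (highest limma adjusted p = 0.169).

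Of 12 tested haemostasis genes, 9 were higher in endothelium and F3 was higher in epithelium (median 2.78, rescaled 2.42). Of all tested genes, 21.9% were called in endothelium and 9.83% in epithelium, and the epithelial count was no more than that share. Vwf, which tethers platelets, was at 51.6 and 46.9 against 0.206 and 0.154 (log2 difference 5.41 ± 0.25, rescaled 5.18, limma adjusted p = 3.29e-10). F3, tissue factor, the trigger of clotting, was at 1.24 and 2.07 against 4.22 and 2.65 (log2 difference -0.74 ± 0.30, rescaled -1.38, limma adjusted p = 0.0411). The F3 groups did not overlap but lay close together, and the call was lost in 2 fits, with the highest limma adjusted p = 0.267 without epithelial replicate 1.

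Of 10 leukocyte adhesion genes, 7 were higher in endothelium (median 2.58, rescaled 2.33). Podxl, a sialomucin that carries selectin ligands, was at 133 and 122 against 0.928 and 0.654 (log2 difference 6.17 ± 0.24, rescaled 5.71). Icam1, which is also known on alveolar epithelium, was at 56.5 and 75.7 against 47.0 and 54.0 and was not called (log2 difference 0.37 ± 0.34, limma adjusted p = 0.344; rescaled -0.44, limma adjusted p = 0.303).

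Of 12 genes of caveolae and lipid uptake, 9 were higher in endothelium (median 3.14, rescaled 2.36). Cav1, the main caveolar coat protein, was at 173 and 203 against 9.07 and 12.7 (log2 difference 4.00 ± 0.43, rescaled 3.23, limma adjusted p = 1.28e-06). Sdpr, another coat protein, was at 351 and 288 against 29.3 and 27.8 (log2 difference 3.43 ± 0.35, rescaled 2.63). Gpihbp1, which anchors lipoprotein lipase to capillaries, was at 383 and 318 against 3.82 and 1.76 (log2 difference 6.58 ± 0.47, rescaled 5.94). Cd36, the fatty acid receptor, was at 61.5 and 61.1 against 28.3 and 25.2, and its rescaled difference was only 0.37, which was not called.

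Markers of each vessel type were found at once in the CD31+ libraries. The calls covered 8 of 8 general capillary genes (median 5.96, rescaled 5.51), 8 of 8 Car4-type capillary genes (4.92, 4.49), 9 of 9 arterial genes (5.02, 4.57) and 6 of 6 venous genes (3.70, 3.22). Of 7 tested lymphatic genes, 6 were called (4.83, 4.70). Members such as Slc6a2 and Mmrn1 passed the expression filter through the endothelial libraries alone, and the venous gene Ackr1 was not tested. These counts are therefore partly set by the filter. Car4, the luminal carbonic anhydrase, was at 124 and 115 against 1.04 and 0.660 (log2 difference 6.03 ± 0.49, rescaled 5.56, limma adjusted p = 7.10e-08), and at 12.9 and 58.0 in the immune libraries. Apln, the apelin ligand of the Car4-type or tip-like cells, was at 129 and 110.2 against 0.408 and 0.726 (log2 difference 6.27 ± 0.36, rescaled 5.87, limma adjusted p = 2.76e-09).

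Among arterial genes, Hey1, a Notch target, was at 352 and 268 against 6.95 and 3.93, and Gja4, connexin 37, at 175 and 164 against 1.92 and 1.34, with log2 differences of 5.62 and 6.02. Mgp, matrix Gla protein, was detected on both sides, at 227 and 187 against 13.9 and 18.7 (log2 difference 3.60 ± 0.62, rescaled 2.81). Slc6a2, the noradrenaline transporter used as a venous marker, was at 72.4 and 52.002 against 0.102 and 0.138 (log2 difference 5.80 ± 0.25, rescaled 5.60). The groups did not overlap for any of these genes.

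The lymphatic master factor Prox1 was at 6.56 and 7.47 against 0.0773 and 0.0640 (log2 difference 2.90 ± 0.19, rescaled 2.75, limma adjusted p = 1.03e-08). Mmrn1 was at 25.1 and 32.3 against 0.0360 and 0.0376 (log2 difference 4.83 ± 0.31, rescaled 4.70). Pdpn, podoplanin, which marks lymphatic endothelium and also AT1 cells, was at 3.40 and 6.72 against 3.54 and 3.66 and was not called. Its endothelial replicates spanned the epithelial ones.

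On the epithelial side, 10 of 14 epithelial identity genes were higher in epithelium (median -2.0, rescaled -2.73), and 8 kept the call without any 1 library. The list includes Epcam, whose direction was set by the sort. Cdh1, E-cadherin, was at 4.82 and 8.16 in endothelium against 29.1 and 32.8 in epithelium (log2 difference -2.13 ± 0.54, rescaled -2.92, limma adjusted p = 0.00344). Cldn3 was at 12.6 and 18.8 against 112.8 and 145 (log2 difference -2.97 ± 0.62, rescaled -3.78, limma adjusted p = 8.15e-04), and Krt18 at 4.59 and 7.05 against 34.4 and 29.1 (log2 difference -2.28 ± 0.57, rescaled -3.07). Nkx2-1, the lung lineage factor, was at 17.6 and 36.6 against 153 and 148 (log2 difference -2.52 ± 0.76, rescaled -3.33, limma adjusted p = 0.00978), and lost its call without endothelial replicate 1 (limma adjusted p = 0.0874).

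The 4 identity genes not called were Cd24a, Cldn18, Krt19 and Krt7. Cldn18, the alveolar claudin, was at 19.8 and 49.4 against 89.0 and 88.6 (log2 difference -1.47 ± 0.73, limma adjusted p = 0.0903; rescaled -2.28, limma adjusted p = 0.0189). Krt19 was at 10.9 and 31.4 against 39.9 and 39.6 with a rescaled difference of -1.86. Cd24a, a membrane glycoprotein that leukocytes also carry, was at 265 and 309.8 against 277 and 161 and at 328 and 185 in the immune libraries. For Cldn18 and Krt19, endothelial replicate 2 was far above endothelial replicate 1.

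Of 18 epithelial transcription factors, 15 were higher in epithelium (median -2.20, rescaled -2.93). Foxa1 was at 3.81 and 8.15 against 43.0 and 33.6 (log2 difference -2.56 ± 0.52, rescaled -3.35, limma adjusted p = 6.81e-04), and Foxa2, which with Foxa1 opens chromatin at lung genes, was at 1.16 and 3.91 against 15.9 and 15.3. Cebpa, a factor of AT2 maturation, was at 9.74 and 15.3 against 54.2 and 115 (log2 difference -2.60 ± 0.60, rescaled -3.40, limma adjusted p = 0.00164). Etv5, which maintains AT2 cells, was at 5.99 and 9.82 against 40.0 and 48.4 (log2 difference -2.37 ± 0.46, rescaled -3.17, limma adjusted p = 4.38e-04).

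Irx1 was at 11.1 and 18.0 against 72.7 and 85.6 (log2 difference -2.40 ± 0.64, rescaled -3.21). Irx2 was at 6.85 and 16.6 against 68.1 and 60.2 and lost its call in 1 fit (limma adjusted p = 0.0837 without endothelial replicate 1). The factors not called were Gata6, Hopx and Sox9. Hopx, a marker of AT1 cells, was at 13.7 and 24.9 against 14.4 and 11.1, and Gata6 at 4.24 and 6.40 against 3.78 and 3.74. The endothelial values of Gata6 were above the epithelial ones as deposited but below them after rescaling (3.98 and 5.91 against 6.12 and 6.25), and those of Hopx overlapped them on both scales.

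All 15 AT2 genes were higher in epithelium (median -2.52, rescaled -3.34), and 9 kept the call without any 1 library. The count was 9 without endothelial replicate 1, 15 without endothelial replicate 2 and 12 without either epithelial replicate. Sftpc, the surfactant protein that AT2 cells alone are known to make, was at 4069 and 6145 in endothelium and at 32532 and 36645 in epithelium (log2 difference -2.79 ± 0.96, rescaled -3.61, limma adjusted p = 0.0190), and its call was lost in 4 fits (highest limma adjusted p = 0.0976). It took 14.2 and 16.0% of the epithelial totals and 1.78 and 2.69% of the endothelial totals, and was at 206 and 682 in the immune libraries.

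Sftpa1, a collectin of surfactant whose promoter is printed above, was at 1074 and 1797 against 8056 and 9649 (log2 difference -2.66 ± 0.87, rescaled -3.49, limma adjusted p = 0.0145), with the call lost in 2 fits (highest 0.0909). Sftpb was at 144 and 244 against 1445 and 1316 and lost its call without endothelial replicate 1 (limma adjusted p = 0.0579). Cxcl15, the lung chemokine lungkine, was at 296 and 507.4 against 3401 and 2765 (log2 difference -2.98 ± 0.72, rescaled -3.80, limma adjusted p = 0.00230). Endothelial values lay below epithelial ones in each of these genes, and endothelial replicate 2 was above replicate 1.

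Slc34a2, the phosphate transporter of AT2 cells, was at 301 and 539 against 1856 and 2063 and lost its call in 4 fits (highest limma adjusted p = 0.158). Muc1 was at 129.5 and 221 against 946 and 1007 and lost it in 1 fit (limma adjusted p = 0.0688). Sftpd, the other surfactant collectin, was at 29.2 and 41.0 against 258 and 254 (log2 difference -2.85 ± 0.50, rescaled -3.67, limma adjusted p = 2.03e-04). Lamp3, a lamellar body membrane protein, was at 24.2 and 39.5 against 216 and 178 (log2 difference -2.63 ± 0.56, rescaled -3.44, limma adjusted p = 9.70e-04). The last pair kept their calls in every leave-one-out fit.

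Most AT1 genes were not called. Of 14 tested, 1 was higher in epithelium (Aqp5), 1 was higher in endothelium (Clic5) and 12 were not called, with a median of 0.04 (rescaled -0.60). Both counts lay below the shares of all tested genes, 9.83% in epithelium and 21.9% in endothelium. Ager, the receptor RAGE that marks AT1 cells, was at 110.6 and 279.9 against 325 and 439.8 (log2 difference -1.10 ± 0.76, limma adjusted p = 0.214; rescaled -1.92, limma adjusted p = 0.0606). Aqp5, the AT1 water channel, was at 16.51 and 47.9 against 51.4 and 87.6 (log2 difference -1.22 ± 0.46, rescaled -2.03, limma adjusted p = 0.0303), and its call was lost in 3 fits (highest 0.413 without endothelial replicate 1). Clic5, a chloride channel protein, was at 53.0 and 57.2 against 11.8 and 14.6 (log2 difference 1.99 ± 0.24, rescaled 1.21, limma adjusted p = 5.19e-06).

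Akap5, an anchoring protein, was at 78.8 and 184 against 142 and 169 and Clic3 at 20.9 and 56.1 against 102 and 116, with log2 differences of -0.36 and -1.64. Vegfa, the ligand that AT1 cells supply to capillaries, was at 112.1 and 126 against 52.1 and 56.4, and was called on deposited values only (log2 difference 1.12 ± 0.31, limma adjusted p = 0.00539; rescaled 0.30, limma adjusted p = 0.450). For Ager, Aqp5, Akap5 and Clic3, endothelial replicate 2 was far above replicate 1, and for Akap5 it was above both epithelial libraries.

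All 9 club and secretory genes were higher in epithelium (median -4.63, rescaled -5.42) and kept their calls without any 1 library. Of 8 ciliated genes, 7 were higher in epithelium (median -1.92, rescaled -2.49). Members such as Rsph1 passed the expression filter through the epithelial libraries alone, so this count is partly set by the filter. Rsph1, a radial spoke protein, was at 0.0593 and 0 against 4.32 and 3.67, and Dynlrb2, a dynein light chain, at 0.121 and 0.282 against 11.5 and 4.86, with log2 differences of -2.28 and -2.84. Tppp3, a tubulin-binding protein found in more cell types, was at 49.2 and 66.3 against 96.4 and 75.6 and was not called. Among basal cell genes only Krt15 was tested, and it was higher in epithelium, and no neuroendocrine gene on the list passed the expression filter.

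Levels of epithelial genes in the CD31+ libraries varied by cell type list and between the replicates. For genes with an epithelial mean of at least 10, the median endothelial level as a share of that mean was 13.3% in replicate 1 and 22.7% in replicate 2 for the 15 AT2 genes. It was 53.7 and 147% for 10 AT1 genes and 6.85 and 1.09% for 9 club genes. Replicate 2 was thus above replicate 1 for the alveolar lists and below it for the club list. On rescaled values the medians were 7.56 and 12.7% for AT2, 30.6 and 82.3% for AT1 and 3.91 and 0.610% for club genes.

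Within AT2 genes the shares ran from 9.59% (Sfta2) to 25.3% (Abca3) in replicate 1, and from 15.7 to 38.6% (Lpcat1) in replicate 2. Within AT1 genes Clic3 was lowest, at 19.1 and 51.4%, and Clic5 highest, at 402 and 434%. The immune libraries held 0.544 and 2.18% for AT2, 0.881 and 3.97% for AT1 and 0.367 and 5.07% for club genes. In the other direction, 12 endothelial identity genes stood at 0.626 and 0.478% of the endothelial mean in the epithelial libraries, with Esam highest at 11.3 and 14.9%. The part of these levels in the differences above was not tested.

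**Figure D4:**
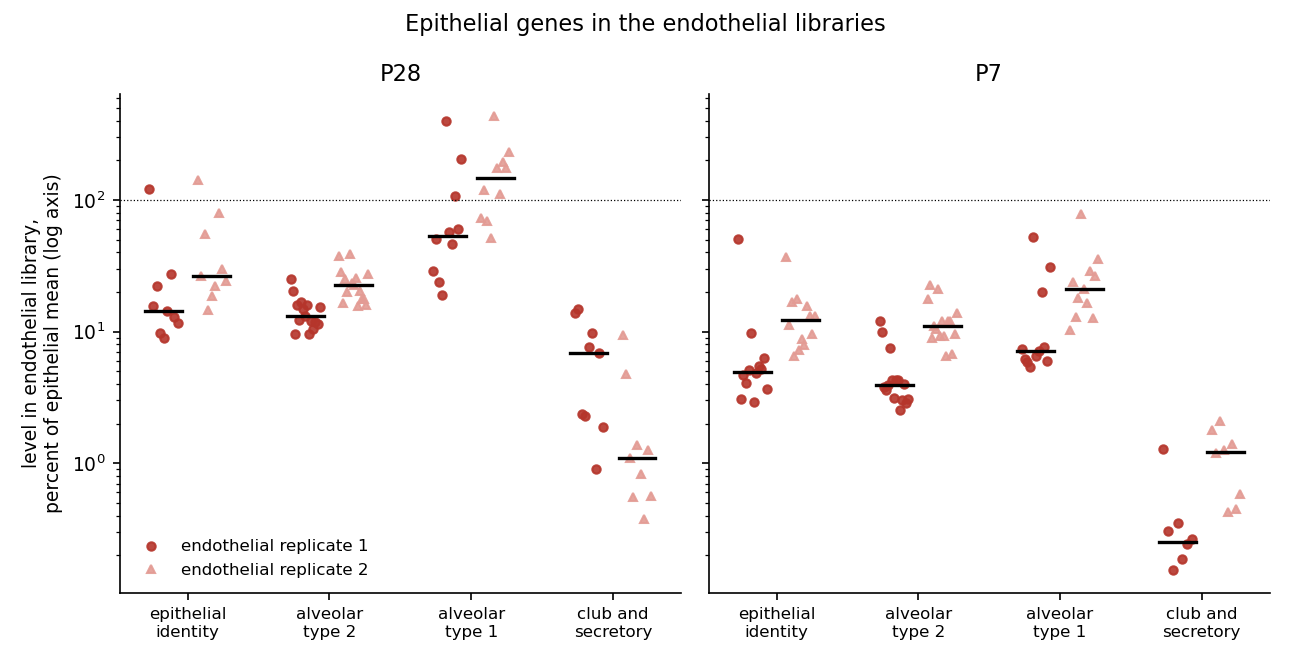
Level of each epithelial gene in endothelial replicates 1 and 2, as a percentage of its epithelial mean (log axis), at P28 and at P7, for genes with an epithelial mean of at least 10, and black lines mark medians. At P28 the AT1 medians are 53.7 and 147%, the AT2 medians 13.3 and 22.7% and the club medians 6.85 and 1.09%, and values of 0, such as Reg3g in 1 P7 library, are not drawn.

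Lists of other cell types gave the following. Of 12 leukocyte genes, 4 were tested and none was called by limma (1 at an unadjusted p under 0.05 on both scales, higher in endothelium), and the summed values of the 12 were 12.5 and 27.5 in endothelium, 14.1 and 3.19 in epithelium, and 1806 and 3132 in the immune libraries. Of 2 tested alveolar macrophage genes, Mrc1 was higher in endothelium. Of 12 mesenchymal genes, 11 were higher in endothelium (median 2.36, rescaled 1.92), with 7 left without endothelial replicate 2. The summed values were 633 and 630 in endothelium, 40.2 and 36.9 in epithelium and 4.41 and 29.8 in the immune fraction.

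Mfap4, a microfibril protein, was at 514 and 491 against 29.0 and 19.3 (log2 difference 4.35 ± 0.69, rescaled 3.55, limma adjusted p = 8.30e-05). Col1a2 was at 14.7 and 18.7 against 1.16 and 2.12 (log2 difference 2.76 ± 0.52, rescaled 2.18), and Acta2, smooth muscle actin, at 20.2 and 22.8 against 1.53 and 2.25. Both endothelial replicates were alike in these genes. The mesothelial gene Lrrn4 and the platelet gene Ppbp, at 11.7 and 111.5 against 0.467 and 3.21, were called, but each lost the call in 4 of 8 fits (highest limma adjusted p = 0.446 and 0.238). What share of the endothelial differences these mesenchymal levels carry was not tested.

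Junction, channel and matrix families were split between the fractions by member. Of 4 tested cadherins, Cdh5 and Cdh11 were higher in endothelium and Cdh1 and Cdh16 in epithelium. Of 10 claudins, Cldn5 and Cldn15 were higher in endothelium, and Cldn3, Cldn4, Cldn7, Cldn8, Cldn22 and Cldn23 in epithelium. The calls of Cldn4 and Cldn22 were each lost in 4 fits (highest limma adjusted p = 0.158 and 0.172) and that of Cldn15 in 2 (0.149). Of the water channels, Aqp1 was higher in endothelium, at 242 and 288 against 5.13 and 9.75 (log2 difference 5.03 ± 0.34, rescaled 4.28, limma adjusted p = 1.11e-08), and Aqp4 and Aqp5 were higher in epithelium.

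Of 6 connexins, Gja4, Gja5 and Gjc1 were higher in endothelium and Gjb2 and Gjb6 in epithelium. Of 8 keratins, Krt8, Krt15, Krt18 and Krt23 were higher in epithelium, and Krt80 and Krt222 in endothelium. Krt222 lost its call in 2 fits (highest limma adjusted p = 0.123). Of 8 laminin chains, Lama4 and Lamc1 were higher in endothelium and Lamb3 in epithelium, and of 5 collagen IV chains, Col4a1 and Col4a2 were higher in endothelium and none in epithelium. Of 13 integrins, 10 were higher in endothelium, and Itga9 in epithelium, with its call lost in 2 fits (0.102). Notch1 and Notch4 were higher in endothelium. The counts of laminins, of endothelial keratins and claudins and of epithelial integrins lay near the shares of all tested genes (21.9 and 9.83%).

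Genes of lipid synthesis were mostly higher in epithelium, which makes surfactant lipid. Of 14 fatty acid and phospholipid genes, 10 were higher in epithelium and Elovl5 in endothelium (median -1.06, rescaled -1.74). Of all tested genes, 9.83% were called in epithelium and 21.9% in endothelium, and the endothelial count lay below that share. The epithelial count was 5 without endothelial replicate 1 and 6 without epithelial replicate 2. Fasn, fatty acid synthase, was at 41.7 and 57.9 in endothelium against 155 and 228 in epithelium (log2 difference -1.91 ± 0.36, rescaled -2.73, limma adjusted p = 3.13e-04). Scd1, the desaturase, was at 463 and 954 against 2262 and 3247 (log2 difference -2.03 ± 0.72, rescaled -2.85, limma adjusted p = 0.0226), and lost its call in 3 fits (highest 0.163). Elovl1, a fatty acid elongase, was at 99.6 and 133 against 179.8 and 384 and lost its call in 2 fits (highest limma adjusted p = 0.193). Elovl5 was at 31.4 and 28.7 against 11.4 and 10.3 (log2 difference 1.39 ± 0.21, rescaled 0.62) and lost its call in 1 fit (0.0677).

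Of 12 cholesterol synthesis genes, 8 were higher in epithelium (median -0.73, rescaled -1.53), but 3 without endothelial replicate 1 and 4 without epithelial replicate 2. Idi1, an isomerase of that pathway, was at 18.4 and 24.4 against 49.0 and 49.8 and lost its call without endothelial replicate 1 (limma adjusted p = 0.0661). Of 10 ion and fluid transport genes, 6 were higher in epithelium (median -1.01, rescaled -1.77), and 3 without endothelial replicate 1 or epithelial replicate 2. Atp1b1, the sodium pump subunit that drives fluid clearance, was at 35.7 and 50.3 against 279 and 226 (log2 difference -2.54 ± 0.68, rescaled -3.36, limma adjusted p = 0.00467).

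Xenobiotic metabolism genes were called in both directions. Of 17 genes, 9 were higher in epithelium and 3 in endothelium (median -0.92, rescaled -1.67), beside 9.83 and 21.9% of all genes tested. The endothelial count was no more than that share. Fmo1, a flavin monooxygenase, was at 91.3 and 106 in endothelium against 0.823 and 0.610 in epithelium (log2 difference 5.86 ± 0.26, rescaled 5.42, limma adjusted p = 2.22e-10). Cyp1a1, the inducible aryl hydrocarbon hydroxylase, was at 33.0 and 29.0 against 0.419 and 0.0328 (log2 difference 4.72 ± 0.18, rescaled 4.49, limma adjusted p = 9.05e-11). Cyp4b1 was at 97.4 and 93.3 against 15.4 and 12.4 (log2 difference 2.70 ± 0.28, rescaled 1.92, limma adjusted p = 9.58e-07).

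These 3 genes kept their endothelial calls in every leave-one-out fit, whereas Cyp2f2 was among the largest epithelial differences. Gstm1, a glutathione transferase, was at 249.3 and 242 against 98.2 and 112.96 and was called on deposited values only (rescaled 0.40).

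Of 15 host defence genes, 13 were higher in epithelium (median -2.67, rescaled -3.49), and Lyz2 among them is also on the AT2 list. Lyz2, lysozyme of AT2 cells and macrophages, was at 1853 and 2908 against 10033 and 14945 (log2 difference -2.40 ± 0.52, rescaled -3.22, limma adjusted p = 0.00108). Chil1, a chitinase-like protein, was at 70.3 and 131 against 575 and 583 (log2 difference -2.58 ± 0.52, rescaled -3.40, limma adjusted p = 5.86e-04), and Lcn2, which binds bacterial siderophores, was at 48.4 and 84.5 against 282 and 339.6 (log2 difference -2.26 ± 0.59, rescaled -3.08). C3, the central complement protein, was at 54.8 and 149.9 against 42.1 and 73.6 and was not called, with overlapping groups.

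Antigen presentation genes lay in opposite directions by class. All 11 tested MHC class I genes were higher in endothelium (median 2.10, rescaled 1.36), and all 13 tested interferon response genes were too (median 2.39, rescaled 1.73), 9 and 11 of them without any 1 library. B2m, the shared light chain, was at 2079 and 2057 against 264 and 161 (log2 difference 3.32 ± 0.35, rescaled 2.50, limma adjusted p = 1.28e-06). H2-K1 was at 910.4 and 844 against 209.9 and 232 (log2 difference 1.99 ± 0.31, rescaled 1.17) and H2-D1 at 912 and 819 against 195 and 208 (log2 difference 2.10 ± 0.35, rescaled 1.28), the latter losing its call in 1 fit (limma adjusted p = 0.0555). The class I heavy chains are similar enough to share reads, so the division between them is uncertain.

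Of 6 MHC class II genes, 5 were higher in epithelium (median -1.53, rescaled -2.32), but 2 without endothelial replicate 1 or epithelial replicate 2 and 3 without either of the others. Cd74, the invariant chain, was at 82.7 and 91.6 in endothelium, 519 and 447 in epithelium and 189 and 540.4 in the immune libraries (log2 difference -2.45 ± 0.57, rescaled -3.27, limma adjusted p = 0.00183). H2-Aa was at 52.1 and 62.7 against 206 and 209 and lost its call in 3 fits (highest limma adjusted p = 0.0775). H2-Ab1 was at 46.6 and 47.1 against 143 and 118 and lost it in 4 (highest 0.113). Both endothelial values were below both epithelial values for these 3 genes.

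Among interferon response genes, Oasl2 was at 68.4 and 67.8 against 6.93 and 3.88 (log2 difference 3.47 ± 0.50, rescaled 2.75). Irf1, an interferon-induced factor, was at 47.1 and 40.8 against 5.04 and 6.27 (log2 difference 2.76 ± 0.28, rescaled 2.03), and Isg15, a ubiquitin-like modifier, was at 20.7 and 32.6 against 2.19 and 1.40 (log2 difference 3.29 ± 0.38, rescaled 2.69). Igtp, a guanosine triphosphatase, was at 35.2 and 36.0 against 1.73 and 3.46 (log2 difference 3.39 ± 0.29, rescaled 2.75). Each of the 4 was higher in both endothelial libraries than in either epithelial one.

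Of 27 paracrine ligands, 13 were higher in endothelium and 4 in epithelium (Areg, Csf2, Il33 and Shh), with a median of 1.46 (rescaled 1.11). Of 28 paracrine receptors, 22 were higher in endothelium and 3 in epithelium (Erbb3, Fgfr2 and Met), with a median of 3.68 (rescaled 3.34). The epithelial receptor count was near the 9.83% of all tested genes. Cxcl12, the chemokine ligand of CXCR4, was at 230.3 and 277 against 0.814 and 1.24 (log2 difference 6.98 ± 0.50, rescaled 6.47, limma adjusted p = 2.02e-08). Il33, an alarmin of AT2 cells, was at 5.71 and 7.86 against 32.0 and 22.7 (log2 difference -1.86 ± 0.27, rescaled -2.65, limma adjusted p = 3.79e-05). Csf2, which alveolar macrophages need, was at 1.01 and 2.03 against 9.38 and 6.64 (log2 difference -1.85 ± 0.37, rescaled -2.57), and Areg, a ligand of the EGF receptor, was at 0.481 and 0.302 against 6.64 and 4.41 (log2 difference -2.21 ± 0.29, rescaled -2.86).

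Fgfr2, the receptor for FGF7 and FGF10, was at 3.91 and 7.40 against 14.5 and 24.6 (log2 difference -1.63 ± 0.41, rescaled -2.41, limma adjusted p = 0.00296), and Met, the receptor for hepatocyte growth factor, was at 1.54 and 2.59 against 9.51 and 10.4 (log2 difference -1.86 ± 0.23, rescaled -2.60). Shh was at 0.774 and 1.40 against 6.79 and 4.66 and Erbb3 at 0.842 and 1.68 against 3.92 and 6.83, and each lost its call in 2 fits (highest limma adjusted p = 0.0527 and 0.0635). Fzd4, the Norrin and Wnt receptor, was at 189 and 153 against 1.88 and 3.27 (log2 difference 5.60 ± 0.50, rescaled 4.96). Some ligands and their receptors were both higher in endothelium, namely Apln with Aplnr, Edn1 with Ednrb, Cxcl12 with Cxcr4 and Efnb2 with Ephb4. Vegfa was at 118.8 ± 9.57 (SD, n = 2) in endothelium and 54.3 ± 3.04 in epithelium, while its receptor Kdr was at 76.7 ± 3.90 and 1.08 ± 0.522.

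Lists of general cell functions held few calls, beside 21.9% of all tested genes called in endothelium and 9.83% in epithelium. No cell cycle gene of 19 was called on both scales (median 0.83, rescaled 0.21), with 5 called on deposited values alone and 0 at an unadjusted p under 0.05 on both scales by limma. No gene of 15 in oxidative phosphorylation was called on both scales (median 0.41, rescaled -0.38), nor at an unadjusted p under 0.05, although 4 passed limma's test as higher in endothelium on deposited values and 6 as higher in epithelium on rescaled values, and no gene was called in both directions. Of 10 glycolysis genes, Pfkp was higher in endothelium and Hk2 and Ldha in epithelium.

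Of 12 immediate early genes, which cell dissociation can induce, Jun and Dusp1 were higher in endothelium (median 1.35, rescaled 0.61). This count was no more than the 21.9% of all tested genes called in that direction. Jun was at 1007 and 628 against 216 and 82.9 (log2 difference 2.56 ± 0.36, rescaled 1.74, limma adjusted p = 2.66e-05), with replicate 1 above replicate 2 in both fractions. The Dusp1 call was lost in 3 fits (highest limma adjusted p = 0.267).

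Genes at a similar level in both fractions were taken as the 10 with the highest mean whose 95% interval of the rescaled difference lay within 1 log2 unit of 0. Similarity was thus judged on rescaled values alone. On deposited values, Actb, Actg1, Ddx5, Sepp1 and Hsp90b1 passed limma's test as higher in endothelium. Actb was at 1889 and 2421 against 940.0 and 986 as deposited, with a rescaled difference of 0.33. Actg1 and Tuba1b differed by -0.02 and -0.06 after rescaling, and Ddx5, an RNA helicase, by 0.06. The chaperones Hspa8, Hsp90ab1 and Hsp90b1 differed by -0.20, -0.22 and -0.22. Srsf2, a splicing factor, differed by -0.20, Eif1, an initiation factor, by -0.38 and Sepp1, selenoprotein P, by 0.18. The 7 genes with a rescaled difference below 0 had the opposite sign on deposited values, from 0.44 (Eif1) to 0.80 (Actg1). Rn45s, the precursor of ribosomal RNA, was at 18245 and 19044 against 10722 and 20530.0 and was not called, and Malat1, a nuclear noncoding RNA, was at 10177 and 7846 against 7117 and 6891, and both turned from 0.33 and 0.35 to -0.49 and -0.47 with rescaling.

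The same contrast at P7, the nearest age with 2 libraries of each fraction, was set against P28 through an interaction term. The endothelial-minus-epithelial difference was higher, that is further toward endothelium, at P28 for 258 genes on both scales (2.52% of genes tested) and lower for 27 (0.264%), with a median change over all genes of 0.34 (rescaled -0.01). Deposited values alone gave 482 (4.70%) and 27, and rescaled values alone 269 (2.63%) and 55 (0.537%), the latter becoming 85 with the sample code as a replicate block. The 482 fell to 265 without P28 endothelial replicate 1, 244 without P28 endothelial replicate 2, 202 without P28 epithelial replicate 1, 180 without P7 endothelial replicate 1 and 158 without P7 epithelial replicate 2, and the 27 to between 12 and 17 without 4 of these libraries, P7 endothelial replicate 1 excepted. Of the 4 P7 libraries, only epithelial replicate 1 shares the sequencing run of P28, so age and run cannot be told apart for the others. Endothelial replicate 1 at P7 came from another run than epithelial replicate 1, so fraction and run cannot be told apart in that pair. Both P7 libraries of replicate 2 came from the same run.

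The named genes with the highest change at P28 were mostly endothelial genes whose epithelial values were higher at P7. Thbd was at 1133 and 1689 in P7 endothelium against 120.2 and 161 in P7 epithelium (difference between ages 4.28 ± 0.70 on the log2 scale, rescaled 3.83, limma adjusted p = 0.00255). Sox18 was at 709.7 and 821 against 53.4 and 49.6 at P7 (difference between ages 4.24 ± 0.70 on the log2 scale, rescaled 3.99, limma adjusted p = 0.00255), Cldn5 at 464 and 254 against 52.6 and 27.1 (difference between ages 4.22 ± 0.81 on the log2 scale, rescaled 3.90, limma adjusted p = 0.00789) and S1pr1 at 299 and 356 against 32.6 and 30.8 (difference between ages 4.08 ± 0.58 on the log2 scale, rescaled 3.76, limma adjusted p = 9.36e-04). For Sox18 the endothelial values were close at the 2 ages, whereas the epithelial values were higher at P7 than at P28. In the P7 epithelial libraries the median endothelial identity gene reached 9.28 and 8.13% of its endothelial mean, against 0.626 and 0.478% at P28, and the part of this in these changes was not tested.

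Cd93 was at 2676 and 3151 against 207 and 227 at P7 (difference between ages 4.03 ± 0.92 on the log2 scale, rescaled 3.58, limma adjusted p = 0.0200), and its call was lost in 5 leave-one-out fits, with the highest limma adjusted p = 0.0856 without P7 epithelial replicate 2. Pcdh1, a protocadherin, was at 382 and 328 against 2.78 and 1.36 at P28 and at 242 and 297 against 31.0 and 34.2 at P7 (difference between ages 3.89 ± 0.77 on the log2 scale, rescaled 3.60, limma adjusted p = 0.00899). Apln was at 77.5 and 57.6 against 12.9 and 8.72 at P7 (difference between ages 3.73 ± 0.51 on the log2 scale, rescaled 3.64, limma adjusted p = 7.54e-04). Cyp1a1 differed from these in that its epithelial values were below 1 at both ages, with 0.0309 and 0 at P7, and its endothelial values at P7 were 0.671 and 0.665 (difference between ages 4.01 ± 0.25 on the log2 scale, rescaled 3.86, limma adjusted p = 2.76e-07).

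By list, all 8 Car4-type capillary genes had a higher difference at P28 (rescaled median 4.49 at P28 and 1.76 at P7), as did 7 of 8 general capillary genes (5.51 and 3.18). In the epithelial libraries, 6 Car4-type capillary genes stood at a median of 21.1 and 17.9% of their endothelial mean at P7, against 0.840 and 0.863% at P28, and their part in this change was not tested. For 8 general capillary genes these medians were 7.38 and 7.79% at P7, against 0.574 and 0.372% at P28. The count was 12 of 20 for vascular growth receptors, 8 of 14 for endothelial identity and 6 of 18 for endothelial transcription factors. Some of these lists share members, so their counts are not separate results. Car4 itself was at 39.6 and 34.3 against 8.59 and 4.56 at P7 (difference between ages 3.66 ± 0.69 on the log2 scale, rescaled 3.50, limma adjusted p = 0.00710), and Fmo1 was at 33.1 and 31.6 against 3.97 and 3.07 (difference between ages 2.97 ± 0.36 on the log2 scale, rescaled 2.83, limma adjusted p = 3.40e-04). None of the 15 AT2, 14 epithelial identity or 9 club genes was called on both scales by limma, and at an unadjusted p under 0.05 on both scales the counts were 0, 2 and 0, with rescaled AT2 medians of -3.34 at P28 and -4.31 at P7.

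**Figure D5:**
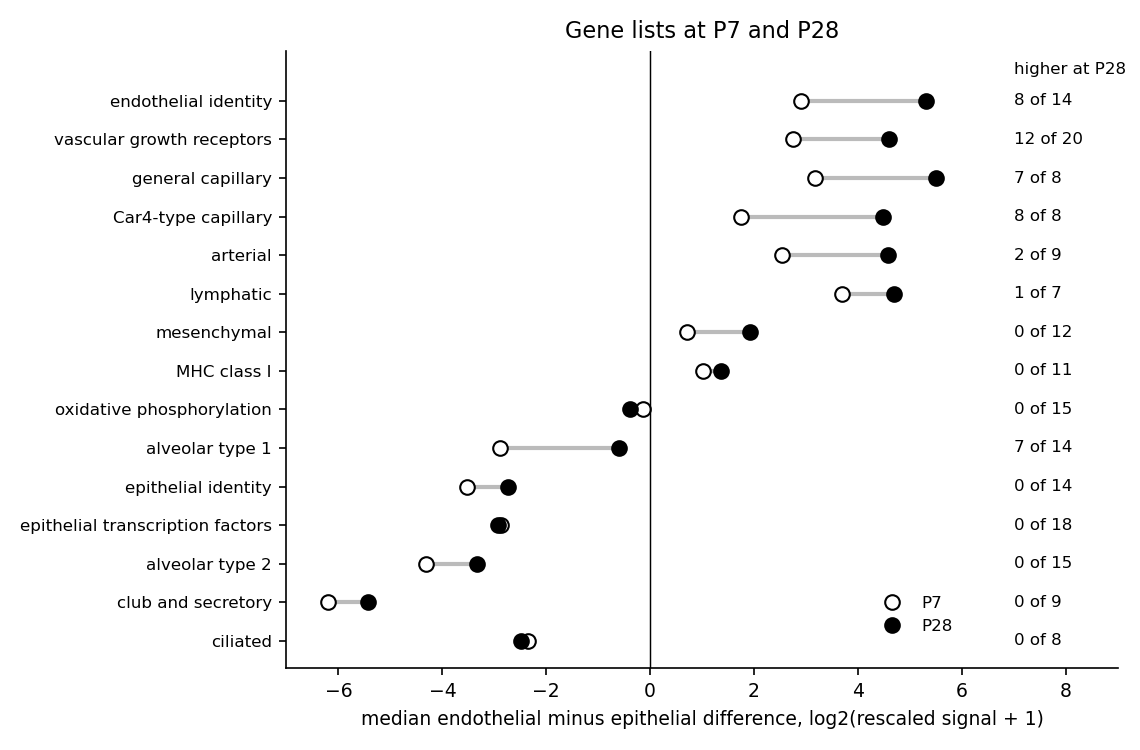
Median rescaled log2 difference of each gene list, endothelial minus epithelial, at P7 (open circles) and P28 (filled circles), with the number of genes whose difference was higher at P28. The Car4-type capillary list moves from 1.76 to 4.49 and the AT1 list from -2.88 to -0.60.

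Of 14 AT1 genes, 7 had a higher difference at P28 than at P7: Clic5, Col4a3, Col4a4, Igfbp2, Pdpn, Rtkn2 and Vegfa. The rescaled AT1 median was -2.88 at P7 and -0.60 at P28. Clic5 was at 20.8 and 31.1 in endothelium against 35.5 and 44.0 in epithelium at P7 (difference between ages 2.61 ± 0.34 on the log2 scale, rescaled 2.14, limma adjusted p = 5.12e-04), so its epithelial values were above the upper endothelial value at P7 and below both endothelial values at P28. Vegfa was at 39.3 and 45.5 against 143 and 111.1 at P7 (difference between ages 2.67 ± 0.43 on the log2 scale, rescaled 2.18, limma adjusted p = 0.00237). Ager was at 44.7 and 62.04 against 813 and 389.6 at P7 and was not called.

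Akap5 was at 74.3 and 284 against 993 and 1406 at P7, with epithelial values several times those of P28. The calls of Col4a3 and Rtkn2 were lost in 4 and 2 leave-one-out fits. In the P7 endothelial libraries the AT1 genes stood at a median of 7.10 and 21.1% of the epithelial mean, against 53.7 and 147% at P28, and AT2 genes at 3.94 and 11.01%. Their part in the AT1 changes was not tested.

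The 5 named genes with a lower difference at P28 follow. Mbnl3, a splicing regulator, was at 2.27 and 2.24 against 10.3 and 5.65 at P28 and at 14.1 and 13.5 against 6.61 and 9.72 at P7 (difference between ages -2.13 ± 0.53 on the log2 scale, rescaled -2.55, limma adjusted p = 0.0296). Sprr1a, a cornified envelope protein, was at 14.01 and 11.03 in P28 epithelium and 0.424 and 0.650 in P7 epithelium (difference between ages -1.95 ± 0.44 on the log2 scale, rescaled -2.64, limma adjusted p = 0.0183). Bmp2, a BMP ligand, was at 3.33 and 3.30 in P28 endothelium and 9.30 and 16.4 in P7 endothelium (difference between ages -1.64 ± 0.40 on the log2 scale, rescaled -2.04, limma adjusted p = 0.0277). Cox6a2 was at 1.42 and 4.402 against 51.99 and 45.3 at P28 and at 0.545 and 0.946 against 6.14 and 4.57 at P7 (difference between ages -1.91 ± 0.50 on the log2 scale, rescaled -2.51, limma adjusted p = 0.0397). Lhx6, a LIM homeobox factor, was at 12.1 and 12.9 in P7 endothelium (difference between ages -1.24 ± 0.33 on the log2 scale, rescaled -1.16, limma adjusted p = 0.0434). Each of the 5 lost its call in 5 to 8 leave-one-out fits.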

How the data were processed

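RNA-seq of sorted mouse lung fractions was analysed from 1 table of 22 libraries in 11 groups of 2. Per the labels' protocols, RNA was extracted with the QIAamp Circulating Nucleic Acid kit, reverse transcribed with Verso, made into Nextera XT libraries and sequenced as paired ends. The submitters' processing notes name TopHat2 2.0.9 and GRCm38 (mm10), while what quantified the genes is not given in the sources used here. Values as deposited are an expression signal that sums to 228405 in every library, and no header or label states the unit before that scaling or whether gene length was divided out. Levels of different genes are therefore not read against each other beyond picking genes of high value and summing lists as a description, and no counting interval can be given.

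The 27 rows whose gene names had become dates were left out (at most 0.097% of a library). Rescaled values were divided by median-of-ratios factors from all 22 libraries. limma 3.58.1 (trend) in R 4.3.3 was fitted to log2(value + 1) with 1 mean per group over all 22 libraries, and p-values were adjusted by Benjamini-Hochberg over the 10246 genes. On data simulated from these libraries with 50 changed genes per fold size, this comparison recovered 42, 96, 100 and 100% of changes of 2, 4, 8 and 16 fold, with 8 false calls over the 10246 genes. The changed genes were drawn from those of higher level, and the simulation held no shift of the typical gene between fractions. It was also tested without rescaling. These rates therefore do not describe the calls made here on both scales.

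At P28 the replicate numbers carry shared sample codes. Deviations of same-numbered libraries from their group means correlated over 11126 genes at 0.164 (endothelial and epithelial), 0.161 (endothelial and immune) and 0.155 (epithelial and immune).

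Named genes were the sort antigens and Ptprc, the 12 largest called differences each way with a higher mean of at least 10, up to 6 members with the highest mean per list and any called against its list, the 10 similar genes, up to 8 each way between ages and the 5 highest per fraction. The 12 largest were also required to have no overlap between groups on either scale. Genes between ages were required to have replicate-paired differences without overlap between the ages. Predicted genes, pseudogenes and ribosomal protein genes were left out of these choices. The remaining names were chosen after their values were seen. The comparison, gene lists and families were chosen with earlier results of these data known. Alternatives were other scalings, pseudocounts, filters, a replicate block, a fold limit and each library left out, and their effect is given at the end.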

Additional observations from a re-analysis of the deposited data

Results flagged for a closer look

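The endothelial-minus-epithelial difference changed between P7 and P28 by an interaction test with limma for the following genes. The change on the log2 scale, as deposited, was 4.28 for Thbd, 4.24 for Sox18, 4.22 for Cldn5, 4.08 for S1pr1 and 4.03 for Cd93, all vascular genes. It was 4.01 for Cyp1a1, an inducible cytochrome P450, 3.89 for Pcdh1, a protocadherin, and 3.73 for Apln, the apelin ligand. In the opposite direction it was -2.13 for Mbnl3, -1.95 for Sprr1a, -1.91 for Cox6a2, -1.64 for Bmp2 and -1.24 for Lhx6. Cd93 lost its call in 5 leave-one-out fits, and each of the genes in the opposite direction in 5 to 8. In epithelial replicates 1 and 2, the median endothelial identity gene was at 9.28 and 8.13% of its endothelial mean at P7. At P28 it was at 0.626 and 0.478%, and the part of this in the changes was not tested. P28 and most P7 libraries came from different sequencing runs, so age and run cannot be told apart. In replicate 1 at P7 the endothelial and epithelial libraries also came from different runs. With 2 libraries per group, no search for outlying samples could be made.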

How the results depend on the processing

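Scaling decided the balance of the P28 calls. Against 5435 genes higher in endothelium and 1007 in epithelium as deposited, scaling by median-of-ratios gave 2243 and 2154 (22 libraries) or 2191 and 1988 (the 4 libraries alone). Equal totals without genes above 1% of a library gave 2772 and 1684, a filter of at least 5 gave 3122 and 513, and a fold limit of 2 gave 1097 and 189, or 735 and 600 with rescaling. Leaving out each library on rescaled values, an alternative chosen after seeing the data like the fold limit with rescaling, gave 1676 and 1880 genes in endothelium without endothelial replicates 1 and 2, and 1787 and 2091 without epithelial replicates 1 and 2. In epithelium it gave 1521, 1759, 1649 and 1937 in the same order. With the replicate block the counts were 5852 and 1130, and 2469 and 2478 with rescaling.

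Between ages, 482 genes higher and 27 lower at P28 became 269 and 55 with rescaling, 12 and 0 with the fold limit, and 4 and 1 with both. Lower genes numbered 3 with a pseudocount of 0.1, 45 without a filter and 8 with a filter of at least 5. The replicate block gave 698 and 31, and 85 lower genes with rescaling. Leaving out each library gave 158 to 5.0e+02 higher genes (rounded) and 12 to 28 lower ones. A scaling from the 4 P28 libraries was not run for the age comparison.

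Of the 10 genes of similar level, 7 turned direction with rescaling, from 0.44 to 0.80 as deposited to between -0.38 and -0.02. For 3 similar genes the direction turned while the deposited value was called. Actg1 went to -0.0177 with rescaling (also with the block or the fold limit), and to -0.113 and -0.238 on rescaled values without endothelial or epithelial replicate 2. Ddx5 went to -0.235 without endothelial replicate 1 and -0.153 without epithelial replicate 2, both rescaled. Hsp90b1 went to -0.225 with rescaling (also with the block or the fold limit), -0.181 with the 4-library scaling, and -0.347, -0.103, -0.0304 and -0.419 on rescaled values without endothelial replicates 1 and 2 and epithelial replicates 1 and 2. The cause of these turns was not tested. Of the other values for single genes and lists under alternatives, 914 stayed on the same side of the threshold, of which 53, not called on either side, turned sign (Eif1, Hsp90ab1, Hspa8, Malat1, Rn45s, Srsf2 and Tuba1b). A further 138 lost the call, 11 gained it and 6 moved. Of the values answering a comparison, 81 did not move beyond the limits used and 41, given above, did.

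The files give no depth, so precision rests on 2 libraries per group. The sample codes are shared across fractions, and the labels do not say if a code is 1 animal.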

Other observations

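Guidance genes were divided between the fractions. Of 21 tested semaphorins and plexins, 11 were higher in endothelium and 3 in epithelium, the latter being Plxnb1, Sema4a and Sema4f, against 21.9 and 9.83% of all genes. Plxnd1, the receptor for class 3 semaphorins on vessels, was at 17.3 and 20.6 in endothelium and 0.260 and 0.730 in epithelium (log2 difference 3.75 ± 0.35, rescaled 3.38), and Sema3g was at 18.2 and 21.4 against 0.108 and 0.0336 (log2 difference 4.28 ± 0.25, rescaled 4.12). Plxnb1 and Sema4a each lost the call in 2 leave-one-out fits, and without endothelial replicate 1 only 1 epithelial call was left in this family. Of 10 ephrins and ephrin receptors, 6 were higher in endothelium, and Epha7 and Ephb3 in epithelium. Ephb4, the venous receptor of Efnb2, was at 33.4 and 35.2 against 0.952 and 1.69 (log2 difference 3.94 ± 0.23, rescaled 3.40).

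Further metabolic families are described by their members, beside the 21.9 and 9.83% of all genes called in endothelium and epithelium. Of 15 cytochromes P450, 6 were higher in endothelium and 4 in epithelium. Cyp26b1, which clears retinoic acid, was at 55.2 and 47.3 in endothelium against 0.512 and 0.215 (log2 difference 5.26 ± 0.27, rescaled 4.94). Of 12 aldehyde dehydrogenases, none was higher in endothelium and 4 were higher in epithelium (Aldh1a1, Aldh1a7, Aldh3a1 and Aldh3b1), and limma gave 1 higher in endothelium on deposited values alone and 1 at an unadjusted p under 0.05 on both scales. Of 5 carbonic anhydrases, Car4 and Car14 were higher in endothelium and Car8 and Car13 in epithelium.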
